A study of Mus musculus with 12 samples.

Results

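The second day of plate-bound stimulation of mouse CD8 T cells was examined by setting cells collected 48 h after the start of activation (48h) against cells collected at 24 h (24h), across all genes. The 48h cells were naive CD8 T cells from the spleens of OT-I mice that had been held for 48 h on plates with antibodies to CD3 (2 µg/ml) and CD28 (1 µg/ml) and with IL-2 (10 ng/ml). The 24h cells came from the same culture scheme, antibodies and IL-2 included, and had spent 24 h on it. OT-I mice carry a transgenic T cell receptor (TCR) for an ovalbumin peptide, and the stimulus used here was antibody to the receptor complex, not the peptide. Each group held 3 libraries, which the submitters describe as biological replicates, so 6 of the 12 libraries of the series were compared. The other 6, of Naive cells and of cells at 72 h that had left the plates after 48 h, entered only the estimate of the spread between replicates and a few levels given for orientation. No age or sex of the mice is stated, nor whether a replicate is 1 mouse or a pool. A transfer of the OT-I cells is mentioned in the RNA extraction protocol, and no other label describes one. Of 48709 genes listed, 12630 reached 1 TPM (a read-based level: reads divided by the length of the transcript and scaled to a common total in every library) in at least 3 libraries and were tested.

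An antibody to CD3 engages the TCR complex and an antibody to CD28 gives the costimulatory signal, while IL-2 drives growth through its receptor. In the first day a naive CD8 T cell leaves quiescence, grows and enters the cell cycle, with early genes of the EGR and NR4A families, MYC and ribosome assembly among the first programmes. By the second day the cells divide quickly, run on glycolysis, fill cytotoxic granules and secrete cytokines. Shortage of amino acids or misfolded protein in the endoplasmic reticulum activates eIF2 alpha kinases and the transcription factors ATF4 and CHOP, a pathway known as the integrated stress response. Low oxygen stabilises the transcription factor HIF-1, which TCR signals also raise in T cells, and which drives glucose uptake, glycolysis and genes that remove mitochondria.

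The 6 libraries held between 17450807 and 19495722 reads recovered from the TPM steps. On log2(TPM + 1), Pearson's r lay between 0.9938 and 0.9943 within the 48h libraries, between 0.9929 and 0.9939 within the 24h libraries and between 0.9588 and 0.9667 across the groups. The first principal component held 79.7% of their variance and separated 48h from 24h. The second held 6.06%, and along it 24h replicate 2 lay on one side of the other 24h libraries. This library was the lowest of the 3 24h libraries in 34.4% of all genes tested, but in 22 of 24 hypoxia-responsive genes and 21 of 25 glycolysis genes. It was also the lowest in 20 of 26 integrated stress response genes and 22 of 31 type I interferon-stimulated genes. List counts that this library moves are given below with and without it where a result turns on them. CD3 and CD8 transcripts marked both groups as CD8 T cells. Cd3e stood at 305 ± 6.37 TPM at 48h and 285 ± 8.0 TPM at 24h (mean ± SD, n = 3 here and below), Cd8b1 at 413 ± 12.9 TPM at 48h and 459 ± 26.6 TPM at 24h and Cd4, the coreceptor of helper T cells, at 0.274 ± 0.052 TPM at 48h and 0.492 ± 0.249 TPM at 24h.

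Markers of B cells, myeloid cells and red cells or platelets summed to less at 48h, and those of NK cells and CD4 T cells did not. The 15 T cell markers summed to less as well, to between 6863 and 7179 TPM in 48h libraries and between 7980 and 8548 TPM in 24h libraries. Of these, 1 was called higher, Cd2, and none lower. The 17 B cell markers summed to between 493 and 539 TPM in 48h libraries and between 1065 and 1149 TPM in 24h libraries, and 10 of them were called lower and none higher. The 21 myeloid markers summed to between 72.5 and 83.4 TPM at 48h and between 111 and 131 TPM at 24h, with 4 of 20 tested called lower. Lyz2, the macrophage and neutrophil lysozyme, had 0.133, 0.628 and 0.663 TPM in 48h cells, against 8.87, 7.89 and 7.06 TPM in 24h cells. The 12 erythroid and platelet markers summed to at most 9.76 TPM at 48h and 21.8 TPM at 24h. The NK cell markers summed to between 951 and 1006 TPM at 48h and between 547 and 564 TPM at 24h, and none of the 12 tested was called. Most of that sum was Nkg7 (943 ± 23.2 TPM at 48h and 532 ± 9.53 TPM at 24h), which CD8 T cells also express, while Ncr1, the NK receptor NKp46, stood at 0.327 ± 0.475 TPM at 48h and 1.51 ± 0.767 TPM at 24h. The CD4 and regulatory T cell markers summed to between 859 and 874 TPM at 48h and between 113 and 147 TPM at 24h, most of it Ctla4 at 48h, with 2 of 8 tested called higher, Ctla4 and Zbtb7b (6.68 ± 1.28 TPM at 48h and 0.874 ± 0.269 TPM at 24h), and 1 lower. Of the stromal and endothelial markers 2 were tested, and neither was called. In bulk RNA fewer cells of a type and less RNA per cell cannot be told apart, and the part of these markers in the falls described below was not tested.

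In all, 625 genes were called higher at 48h (4.95% of those tested) and 388 lower (3.07%), at an adjusted p under 0.05 with at least a 2-fold difference. The test was limma on log2(TPM + 1) with Benjamini-Hochberg adjustment over the genes tested, and a fold change is on that scale, which understates the change of low genes. By adjusted p alone, with no fold minimum, 2786 genes were higher (22.1%) and 3789 lower (30.0%), so rises outnumbered falls past 2-fold and falls outnumbered rises without a fold minimum. All 3 48h libraries lay above every 24h library for 27.6% of the genes tested and below every one for 36.7%. Among the called genes, 1003 of 1013 had no overlap between the groups. Rises reached further than falls: 124 genes rose at least 4-fold and 37 fell at least 4-fold, and at 8-fold the counts were 26 and 1. The median log2 fold change of all genes tested was −0.06, and −0.02 with median-of-ratios scaling. The plot of all genes shows that the strongest rises were spread from lowly to highly expressed genes.

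**Figure D1:**
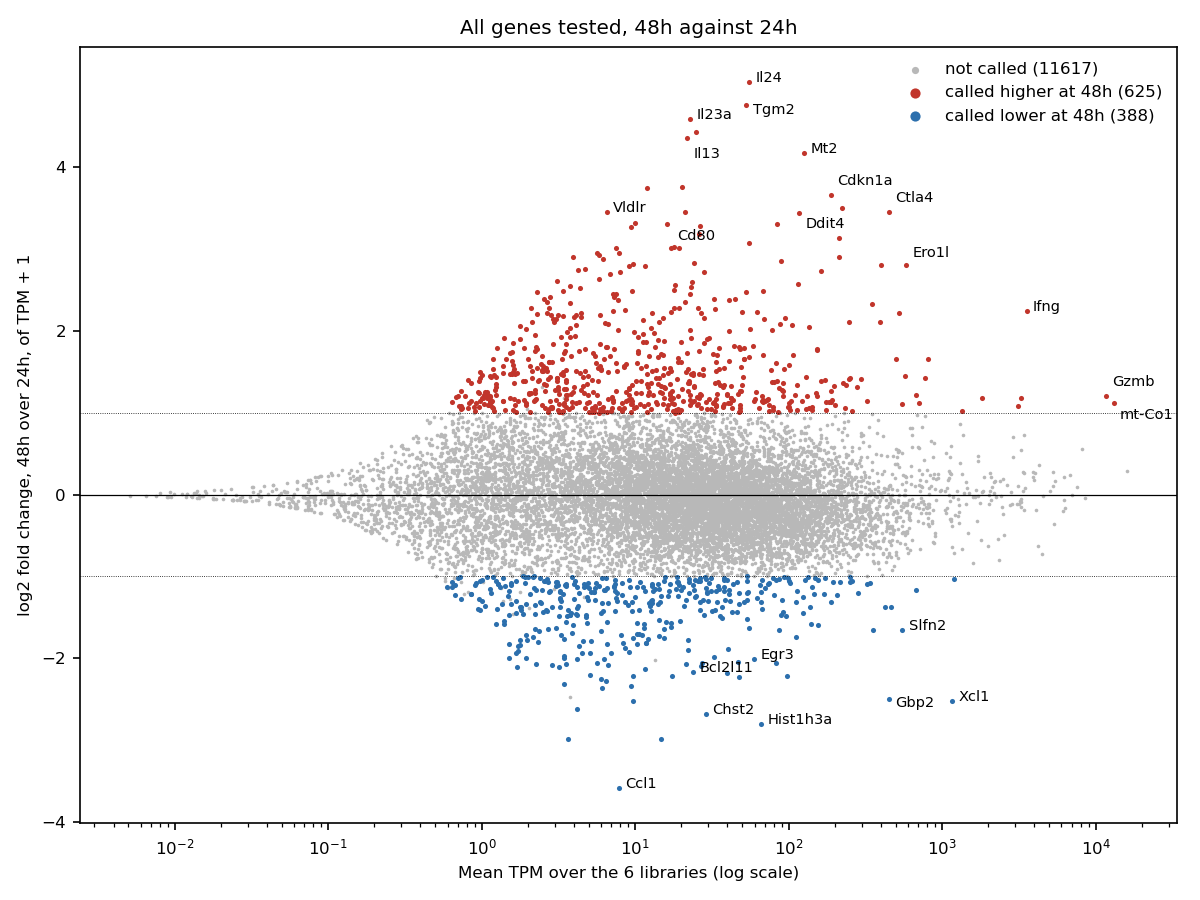
Each point is 1 of 12630 genes: mean TPM over the 6 libraries (log scale) against the log2 fold change of 48h over 24h of TPM + 1. Red points are the 625 genes called higher at 48h, blue points the 388 called lower and grey points the rest; dotted lines mark a 2-fold difference, and Il24 stands highest and Ccl1 lowest.

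The genes with the largest fold rises were led by secreted and matrix proteins. Il24, a cytokine of the IL-10 family, had 103, 109 and 112 TPM in 48h cells, against 2.32, 2.14 and 2.56 TPM in 24h cells (log2 fold change 5.03 ± 0.10 SE, limma adjusted p = 9.3e-12). Tgm2, tissue transglutaminase, which crosslinks proteins, had 111, 104 and 95.4 TPM in 48h cells, against 3.1, 2.24 and 3.29 TPM in 24h cells. Both genes were low in each 24h library and above 90 TPM in each 48h library. Il23a, the p19 subunit of IL-23, had 45, 43.6 and 45.8 TPM in 48h cells, against 0.944, 1.03 and 0.745 TPM in 24h cells (log2 fold change 4.59 ± 0.13 SE, limma adjusted p = 1.61e-10). Emilin2, an elastin-associated matrix glycoprotein, had 49.1, 48.5 and 47.4 TPM in 48h cells, against 1.68, 0.719 and 1.64 TPM in 24h cells. Il13, a type 2 cytokine, had 44.7, 44.2 and 38.6 TPM in 48h cells, against 1.33, 0.259 and 2.24 TPM in 24h cells (log2 fold change 4.36). In Il13 and Emilin2 the spread within 24h came mostly from replicate 2, which was the lowest. It did not reach the 48h range, as the rule for choosing these genes required no overlap. The other genes of the 15 largest rises were Mt2, Mgarp, H2-Q10, Cdkn1a, Anxa2, Vldlr, Selenbp1, Ctla4, Ddit4 and Ppp1r3b, with log2 fold changes between 3.31 and 4.16. H2-Q10 is a nonclassical MHC class I gene with close copies, and how reads shared between copies were counted is not given, so its value is uncertain.

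The largest fold falls held a chemokine, activation-induced factors and histone genes. Ccl1, a chemokine that binds CCR8, had 0.357, 0.336 and 0.354 TPM in 48h cells, against 13.4, 17.5 and 14.9 TPM in 24h cells (log2 fold change −3.59 ± 0.13 SE, limma adjusted p = 2.25e-09). Fam26f, a membrane channel family gene induced by interferon, had 3.6, 2.06 and 2.02 TPM in 48h cells, against 30.2, 26.8 and 23.6 TPM in 24h cells. Chst2, a sulfotransferase that modifies selectin ligands, had 7.75, 6.31 and 7.08 TPM in 48h cells, against 49.2, 54.2 and 48.5 TPM in 24h cells (log2 fold change −2.68). Npas4, an activity-induced transcription factor best known in neurons, had 2.37, 2.57 and 2.36 TPM in 48h cells, against 18.2, 14.9 and 16 TPM in 24h cells, and Egr4, an EGR family factor, had 1.73, 1.11 and 1.09 TPM in 48h cells, against 10.6, 12 and 9.82 TPM in 24h cells. These genes were chosen to have no overlap between the 48h and 24h libraries. Timp2, an inhibitor of matrix metalloproteinases, the immunoglobulin segment Igkv1-110 and 6 histone genes were also among the 15 largest falls, besides Xcl1 and Gbp2 below.

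In absolute TPM the rises were carried by a few very abundant transcripts. mt-Co1, the mitochondrially encoded subunit of complex IV, had 15979.9, 18682 and 19168 TPM in 48h cells, against 7573, 8689 and 8465 TPM in 24h cells, and Gzmb, the serine protease granzyme B, had 16607, 16370.4 and 16094 TPM in 48h cells, against 7265, 6379 and 7717 TPM in 24h cells. With quantile normalization the log2 fold change was 0.28 for mt-Co1 and 0.59 for Gzmb, against 1.12 and 1.20 without it, and both calls were lost. mt-Co1 was the 1 gene called of 13 of the mitochondrial genome, of which 6 had a log2 fold change below 0. Ifng, the effector cytokine interferon gamma, had 5702, 5841 and 6070.4 TPM in 48h cells, against 1263, 1062 and 1426 TPM in 24h cells (log2 fold change 2.24 ± 0.21 SE, limma adjusted p = 2.71e-06). The next were Pgk1, Gapdh, Eno1 and Tpi1 of glycolysis, Ero1l, Scd2 and Ctla4. The 10 most abundant genes took between 10.1% and 10.9% of all TPM in 48h libraries and between 7.58% and 8.42% in 24h libraries. The largest absolute falls were those of Xcl1, Ccl4, Gbp2, Slfn2, Srm, Cd52, Trbv12-1, Ifi47, Gm20390 and Mat2a, and the call of Gm20390 was lost without 48h replicate 3. Trbv12-1, which encodes the Vβ5 segment of the OT-I receptor, had 261, 239 and 208 TPM in 48h cells, against 592, 654 and 583 TPM in 24h cells, and Cd52, a small surface glycoprotein, had 274, 240.0 and 258 TPM in 48h cells, against 668, 673 and 661 TPM in 24h cells.

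**Figure D2:**
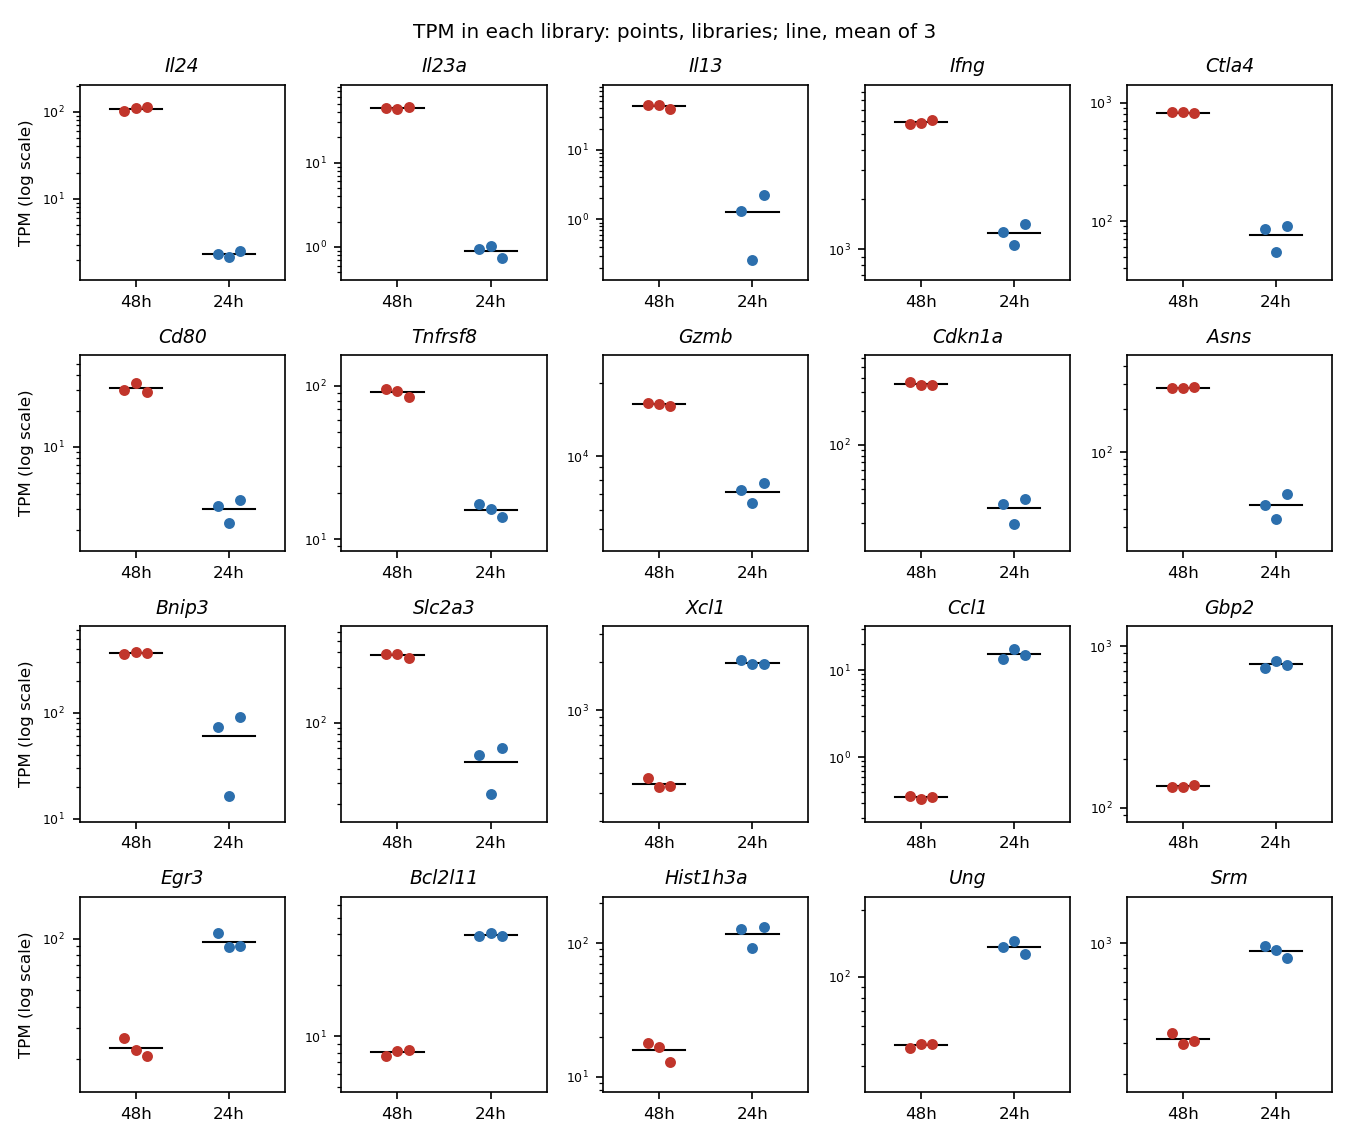
TPM (log scale) of 20 genes in each library, with 48h on the left and 24h on the right; points are libraries and lines the mean of 3. The groups do not overlap in any of the 20 genes, and the last 8 genes are lower at 48h. In the genes higher at 48h, except Il23a and Tnfrsf8, 24h replicate 2 (the middle point) is the lowest 24h library.

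Genes of the response to low oxygen outside glycolysis rose together. Of 24 tested, 17 were called higher (4.95% of all genes tested were) and none lower, with a median log2 fold change of 1.21 against −0.06 for all genes. Without 24h replicate 2, 13 were called and the median was 1.06, the calls of Egln1, Ankrd37, Kdm3a and Fam162a being lost. Bnip3, which marks mitochondria for removal, had 358, 377 and 371 TPM in 48h cells, against 73.5, 16.5 and 91.7 TPM in 24h cells (log2 fold change 2.9 ± 0.44 SE, limma adjusted p = 0.000125). The 48h libraries stood close together, and 24h replicate 2 was far below the other 24h libraries. Ddit4, an inhibitor of mTORC1, had 243, 212 and 194 TPM in 48h cells, against 21.6, 15.3 and 20.6 TPM in 24h cells (log2 fold change 3.44). Egln3, an oxygen-sensing prolyl hydroxylase, stood at 575 ± 10.2 TPM at 48h and 126 ± 60.7 TPM at 24h. Vegfa, the vascular growth factor, stood at 55.1 ± 4.37 TPM at 48h and 10.3 ± 4.14 TPM at 24h, and P4ha2, a collagen prolyl hydroxylase, at 16.5 ± 2.05 TPM at 48h and 1.67 ± 1.01 TPM at 24h. Mxi1, a MYC antagonist, differed little within groups, at 45.4, 46.7 and 42.4 TPM in 48h cells, against 9.22, 8.73 and 8.73 TPM in 24h cells. Anxa2 and Selenbp1 had the largest fold changes of the list, 3.50 and 3.45. Hif1a, the oxygen-regulated subunit of HIF-1, had 279, 307 and 304 TPM in 48h cells, against 154, 158 and 169 TPM in 24h cells, higher in every 48h library but under the 2-fold minimum (log2 fold change 0.88, limma adjusted p = 2.47e-06). Car9 (0.927 ± 0.304 TPM at 48h and 0.235 ± 0.0501 TPM at 24h) and Adm (3.83 ± 0.591 TPM at 48h and 2.59 ± 0.846 TPM at 24h), HIF targets in many other cell types, were low in both groups. Car9 was higher by adjusted p alone (limma adjusted p = 0.0391), and Adm did not pass the test (limma adjusted p = 0.0505).

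Promoter sequence of the hypoxia genes was read for the core of the HIF binding element, ACGTGC on either strand. RefSeq promoter windows (GRCm38.p6, 250 bases before to 50 after the start) matched 9271 of the 12630 genes tested, with 11758 windows. The core was in 44.8% of the windows of the hypoxia list (13 of 29), in 21.6% of those of the glycolysis list and in 8.03% of all windows. In the windows of all genes called higher the core's share was 8.54%, near that of all windows, and in those called lower 9.76%. The hypoxia list was made of genes known to respond to low oxygen. Its share covers called and uncalled members and does not bear on which genes rose. The 80-base stretches below lie upstream of the start of 6 called members, read 5′ to 3′ on the gene's strand, with the core in capitals. In Bnip3 the capitals hold 2 overlapping copies, on opposite strands, and with them the E-box CACGTG.
Ddit4, chr10:59951914-59951993, minus strand: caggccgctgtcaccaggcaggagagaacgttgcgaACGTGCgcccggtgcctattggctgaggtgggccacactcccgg
Bnip3, chr7:138909570-138909649, minus strand: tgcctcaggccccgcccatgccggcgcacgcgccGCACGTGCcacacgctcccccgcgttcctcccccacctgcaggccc
P4ha2, chr11:54100810-54100889, plus strand: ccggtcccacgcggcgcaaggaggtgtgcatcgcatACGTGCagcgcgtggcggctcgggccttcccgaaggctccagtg
Mxi1, chr19:53329311-53329390, plus strand: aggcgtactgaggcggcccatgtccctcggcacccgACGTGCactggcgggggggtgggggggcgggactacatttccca
P4ha1, chr10:59323216-59323295, plus strand: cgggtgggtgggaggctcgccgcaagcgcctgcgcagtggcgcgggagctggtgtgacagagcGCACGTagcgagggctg
Fam162a, chr16:36071600-36071679, minus strand: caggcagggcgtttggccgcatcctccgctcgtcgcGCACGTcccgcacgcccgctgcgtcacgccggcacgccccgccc
The core began 17 bases before the start in P4ha1 and 187 bases before it in Ddit4, the nearest and farthest of the 6. A match is a description of the letters and not a site.

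Glycolysis and lactate genes rose with them. Of 25 tested, 11 were called higher and none lower, with a median log2 fold change of 0.86, and 21 were higher by adjusted p alone. Without 24h replicate 2, 6 were called, with a median of 0.68. The list summed to between 26678 and 27626 TPM in 48h libraries and between 11680.5 and 16645 TPM in 24h libraries. Slc2a3, the glucose transporter GLUT3, had 388, 392 and 362 TPM in 48h cells, against 53.1, 24.2 and 59.9 TPM in 24h cells (log2 fold change 3.13 ± 0.24 SE, limma adjusted p = 4.3e-07). Slc16a3, the lactate exporter MCT4, had 179, 165 and 149 TPM in 48h cells, against 59.6, 14.2 and 64.4 TPM in 24h cells (log2 fold change 2.07). Both transporters were lowest in 24h replicate 2, and the other 24h libraries still lay below every 48h library. Aldoc, an aldolase isoform, had 36.3, 33.7 and 34.2 TPM in 48h cells, against 5.26, 1.48 and 4.6 TPM in 24h cells. Pgk1, phosphoglycerate kinase, had 4533, 4449 and 4543 TPM in 48h cells, against 2090.4, 1586 and 2363 TPM in 24h cells. The calls of Eno1, Gapdh, Tpi1, Pfkp and the glucose transporter Slc2a1 were the 5 lost without 24h replicate 2. Ldha, lactate dehydrogenase A, had 3671, 3546 and 3602 TPM in 48h cells, against 2316, 1879.5 and 2475 TPM in 24h cells and was higher by adjusted p alone (log2 fold change 0.71, limma adjusted p = 1.47e-05). Ldhb, the other lactate dehydrogenase subunit, went the other way, at 16.5 ± 1.61 TPM at 48h and 27.3 ± 1.46 TPM at 24h. Nuclear respiratory chain genes held no call among 39 tested (median −0.14), and of the 27 TCA cycle and pyruvate genes Idh1 was the 1 called, higher at 48h (13.2 ± 0.396 TPM at 48h and 3.85 ± 0.924 TPM at 24h).

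**Figure D3:**
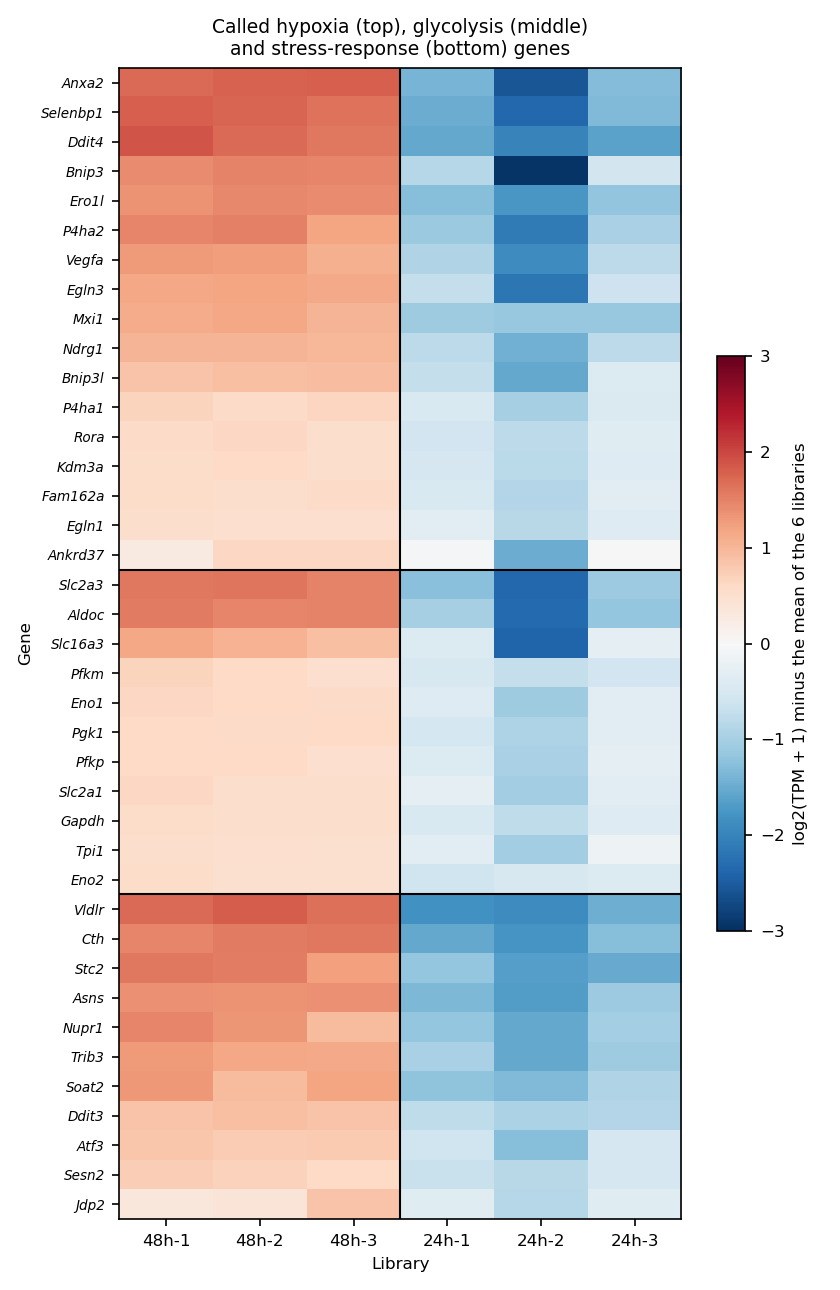
Heat map of the called hypoxia (top), glycolysis (middle) and integrated stress response genes (bottom, less Ero1l and Ddit4, which are shown at the top) in each library, as log2(TPM + 1) minus the mean of the 6 libraries; 48h libraries are the left 3 columns and 24h libraries the right 3. All 48h libraries are red, and 24h replicate 2 is the darkest blue column, most of all in Bnip3, Slc2a3 and Slc16a3.

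The integrated stress response list held rises and no fall. Of 26 tested, 13 were called higher and none lower, and 21 were higher by adjusted p alone, with a median log2 fold change of 0.94, and 12 were called without 24h replicate 2. Ero1l and Ddit4 belong to this list and to the hypoxia list. Asns, asparagine synthetase, had 283, 282 and 286 TPM in 48h cells, against 42.6, 33.8 and 50.9 TPM in 24h cells (log2 fold change 2.73 ± 0.12 SE, limma adjusted p = 4.61e-09). Cth, cystathionine gamma-lyase of cysteine synthesis, had 94.3, 102 and 102 TPM in 48h cells, against 10.9, 9.12 and 13.3 TPM in 24h cells. In both genes the 48h libraries lay within a narrow range and far above 24h. Trib3, a pseudokinase induced by CHOP, stood at 75.9 ± 4.01 TPM at 48h and 13.9 ± 2.9 TPM at 24h, and Ddit3, CHOP itself, had 33.5, 34.6 and 33.3 TPM in 48h cells, against 10.3, 8.84 and 9.35 TPM in 24h cells (log2 fold change 1.73). Vldlr, a lipoprotein receptor, and Stc2, a secreted glycoprotein, were near 0 at 24h. Vldlr had 12.6, 13.6 and 12.2 TPM in 48h cells, against 0.175, 0.124 and 0.519 TPM in 24h cells, and Stc2 had 8.46, 8.2 and 6.36 TPM in 48h cells, against 0.403, 0 and 0.0978 TPM in 24h cells. Ero1l, the endoplasmic reticulum oxidase, stood at 1018 ± 36.1 TPM at 48h and 148 ± 28.9 TPM at 24h. Atf4, the central factor of the response and controlled mainly at translation, stood at 797 ± 10.9 TPM at 48h and 481 ± 40.7 TPM at 24h, under the 2-fold minimum. Chac1 (11.9 ± 2.27 TPM at 48h and 6.36 ± 0.557 TPM at 24h) was higher by adjusted p alone. Atf5 (23.6 ± 3.33 TPM at 48h and 18.4 ± 2.89 TPM at 24h) did not pass the test (limma adjusted p = 0.057). Chaperones of the unfolded protein response held no call in 29 tested (median 0.17), with 13 higher and 7 lower by adjusted p alone.

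The composite CEBP-ATF element that ATF4 and CHOP bind, TGATGNAA on either strand, was searched in the same windows. It was in 29.6% of the windows of the stress response list (8 of 27), in none of the 29 of the hypoxia list and in 2.33% of all windows. The share was 4.76% in the windows of genes called higher and 3.14% in those called lower. That of the stress response list covers called and uncalled members and does not bear on which genes rose. The same limit holds for the motif shares of other lists below. Stretches of 80 bases upstream of the start are given for 5 called members that held it there, with the element in capitals.
Vldlr, chr19:27216784-27216863, plus strand: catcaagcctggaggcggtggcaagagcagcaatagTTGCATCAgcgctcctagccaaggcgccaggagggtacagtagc
Asns, chr6:7693210-7693289, minus strand: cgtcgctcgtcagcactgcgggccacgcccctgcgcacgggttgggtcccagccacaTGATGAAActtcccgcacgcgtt
Nupr1, chr7:126625537-126625616, minus strand: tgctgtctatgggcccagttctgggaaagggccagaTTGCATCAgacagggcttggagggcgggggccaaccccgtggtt
Atf3, chr1:191183400-191183479, minus strand: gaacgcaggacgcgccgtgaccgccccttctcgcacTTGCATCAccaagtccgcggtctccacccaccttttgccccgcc
Jdp2, chr12:85599336-85599415, plus strand: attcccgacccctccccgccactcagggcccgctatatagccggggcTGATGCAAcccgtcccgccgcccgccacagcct
The element began 23 bases before the start in Asns and 33 in Jdp2, and on the reverse strand, as TTGCATCA, in Vldlr, Nupr1 and Atf3. Nupr1, a small stress-induced chromatin protein, had 7.53, 6.77 and 4.94 TPM in 48h cells, against 0.383, 0.0621 and 0.537 TPM in 24h cells. Atf3, a stress-induced repressor, had 154, 148 and 149 TPM in 48h cells, against 56.6, 35.2 and 61.1 TPM in 24h cells, and Jdp2, its relative, had 6.65, 6.85 and 9.91 TPM in 48h cells, against 3.67, 2.32 and 3.68 TPM in 24h cells. The call of Jdp2 was lost without 48h replicate 3 or 24h replicate 2.

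Enzymes that make amino acids split. Of 25 genes of serine, one-carbon, asparagine and proline synthesis, 6 were called higher and 1 lower. Besides Asns and Cth, the rises were Aldh1l2 of mitochondrial folate metabolism (8.97 ± 0.436 TPM at 48h and 0.478 ± 0.148 TPM at 24h), the alanine aminotransferase Gpt2 (36.9 ± 1.15 TPM at 48h and 8.56 ± 1.74 TPM at 24h), Pycr1 of proline synthesis (18 ± 1.12 TPM at 48h and 5.87 ± 0.448 TPM at 24h) and the glutaminase Gls2 (22.5 ± 1.73 TPM at 48h and 8.53 ± 1.12 TPM at 24h). The fall was Shmt1, the cytosolic serine hydroxymethyltransferase, at 72.7 ± 3.7 TPM at 48h and 174 ± 3.99 TPM at 24h (log2 fold change −1.25). Shmt2, its mitochondrial relative, did not pass the test (642 ± 43.3 TPM at 48h and 712 ± 40.2 TPM at 24h, limma adjusted p = 0.122). Of 17 amino acid transporters, 3 were called higher. Slc7a3, a cationic amino acid transporter, had 38.1, 42.9 and 39.9 TPM in 48h cells, against 5.81, 4.83 and 8.11 TPM in 24h cells (log2 fold change 2.53). Slc6a9, a glycine transporter, stood at 13.4 ± 2.4 TPM at 48h and 4.92 ± 1.15 TPM at 24h, and Slc7a11, the cystine exchanger, at 2.5 ± 0.18 TPM at 48h and 0.554 ± 0.21 TPM at 24h. Slc7a5 (788 ± 22.3 TPM at 48h and 447 ± 9.77 TPM at 24h), the main large neutral amino acid transporter of activated T cells, was higher by adjusted p alone.

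Many cytokine genes rose and chemokine genes fell. Of 27 cytokines and secreted ligands tested, 12 were called higher and 1 lower, and that count of rises was the same with each of the 6 libraries left out. Besides Ifng, Il24 and Il13, the growth factors of myeloid cells Csf2 (55.2 ± 1.38 TPM at 48h and 15.5 ± 3.09 TPM at 24h) and Il3 (62.5 ± 8.08 TPM at 48h and 19.7 ± 4.75 TPM at 24h) rose. So did Lif (184 ± 5.91 TPM at 48h and 80.7 ± 15.5 TPM at 24h) and Lta (951 ± 60.4 TPM at 48h and 409 ± 3.34 TPM at 24h), which encodes lymphotoxin alpha, and Fasl (28.9 ± 1.23 TPM at 48h and 5.41 ± 0.626 TPM at 24h), the ligand of the death receptor Fas. Il10, an anti-inflammatory cytokine, had 10.6, 13.1 and 11.2 TPM in 48h cells, against 0.98, 0.834 and 0.386 TPM in 24h cells (log2 fold change 2.87 ± 0.31 SE, limma adjusted p = 8.06e-06). Spp1, osteopontin, had 28.2, 28.7 and 36.6 TPM in 48h cells, against 3.21, 5.69 and 5.42 TPM in 24h cells, and Penk, which encodes enkephalin peptides, had 45.4, 45.6 and 38.2 TPM in 48h cells, against 7.95, 6.4 and 10.1 TPM in 24h cells. Ebi3, a subunit of IL-27 and IL-35, stood at 11 ± 2.64 TPM at 48h and 2.67 ± 0.245 TPM at 24h. The fall was Csf1 (0.457 ± 0.098 TPM at 48h and 2.11 ± 0.0938 TPM at 24h). Il2 had 15.1, 15.8 and 16.3 TPM in 48h cells, against 26.6, 18.6 and 29 TPM in 24h cells and was lower by adjusted p alone (limma adjusted p = 0.00995), and Tnf (41.2 ± 4.33 TPM at 48h and 44.6 ± 4.51 TPM at 24h) overlapped between the groups. At 72h, after a day off the plates, Ifng averaged 24.7 ± 3.79 TPM and Il23a was listed at 0, against the 48h levels above.

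No chemokine gene of the list rose. Of 10 tested, 6 were called lower, with a median log2 fold change of −1.10. Xcl1, which attracts XCR1-bearing dendritic cells, had 372, 327 and 335 TPM in 48h cells, against 2051, 1937 and 1952 TPM in 24h cells (log2 fold change −2.52 ± 0.41 SE, limma adjusted p = 0.000206). Ccl9 had 12.3, 13.6 and 15.2 TPM in 48h cells, against 58.5, 72 and 66 TPM in 24h cells. Ccl4, a chemokine of activated T cells, had 764, 755 and 825 TPM in 48h cells, against 1562, 1415 and 1823 TPM in 24h cells, a fall just past 2-fold whose call was lost without 24h replicate 3. Cxcl9 and Cxcl10, interferon-induced CXCR3 ligands, stood at 0.601 ± 0.093 TPM at 48h and 4.1 ± 0.532 TPM at 24h and at 7.55 ± 0.772 TPM at 48h and 18.5 ± 4.09 TPM at 24h. Ccl3 (1547 ± 52.7 TPM at 48h and 2412 ± 311 TPM at 24h) and Ccl5 (27.9 ± 0.828 TPM at 48h and 36.7 ± 3.06 TPM at 24h) were lower by adjusted p alone. Ccl1, Xcl1 and Ccl4 thus fell in the same libraries in which Ifng, Csf2 and Il3 rose.

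Several cytotoxic granule genes rose. Of 19 tested, 7 were called higher and none lower, with a median of 0.72 and between 6 and 8 called with 1 library left out. Prf1, the pore former perforin, had 346, 375 and 318 TPM in 48h cells, against 182, 159.7 and 169 TPM in 24h cells, just past 2-fold, and its call was lost without 48h replicate 2 or 24h replicate 2. Gzmc had 22.1, 28.4 and 27.3 TPM in 48h cells, against 6.36, 8.36 and 11 TPM in 24h cells (log2 fold change 1.51). Gzmd and Gzme were listed at 0 in every 24h library and averaged 4.56 ± 0.311 TPM and 2.79 ± 0.572 TPM at 48h. The granzyme genes C to G are close copies, so the split of reads among them is uncertain. Serpinb6b, a granule protease inhibitor, had 809.9, 827 and 871 TPM in 48h cells, against 309, 292 and 321 TPM in 24h cells. Gzma (33.7 ± 4.14 TPM at 48h and 16.6 ± 2.22 TPM at 24h) and Nkg7 (943 ± 23.2 TPM at 48h and 532 ± 9.53 TPM at 24h), a granule membrane protein, were higher by adjusted p alone, and Ctsw, cathepsin W, was lower by adjusted p alone (77.5 ± 2.66 TPM at 48h and 117 ± 4.73 TPM at 24h).

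Inhibitory receptor genes went both ways. Ctla4, the inhibitory receptor for CD80 and CD86, had 831, 831 and 820.1 TPM in 48h cells, against 85.9, 54.4 and 90.1 TPM in 24h cells (log2 fold change 3.45 ± 0.14 SE, limma adjusted p = 3.24e-09). Its ligand gene Cd80 had 30.0, 34.2 and 29.1 TPM in 48h cells, against 3.21, 2.3 and 3.57 TPM in 24h cells (log2 fold change 3.01). In both, no 48h library came near the 24h range. Of 18 inhibitory receptors, 4 were called higher and 1 lower, with a median of −0.12. Lag3, which binds MHC class II, had 399, 369.6 and 335 TPM in 48h cells, against 147, 128 and 136 TPM in 24h cells, and Tigit, which binds the poliovirus receptor, had 156, 164 and 167 TPM in 48h cells, against 72, 54 and 66.2 TPM in 24h cells. Havcr2, which encodes TIM-3, had 7.02, 9.58 and 6.91 TPM in 48h cells, against 3.95, 2.12 and 3.53 TPM in 24h cells, and its call was lost without 48h replicate 2 or 24h replicate 2. Pdcd1, which encodes PD-1, had 53.1, 46.1 and 46.6 TPM in 48h cells, against 91.1, 96.6 and 102 TPM in 24h cells, lower by adjusted p alone (log2 fold change −0.98). The 1 called fall was Cd160, at 17.4 ± 0.495 TPM at 48h and 41.4 ± 4.28 TPM at 24h.

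Of 24 costimulatory and activation receptors, 6 were called higher and none lower, with a median of 0.10. Tnfrsf8, which encodes CD30, had 95.6, 91.7 and 84.9 TPM in 48h cells, against 16.9, 15.8 and 13.8 TPM in 24h cells (log2 fold change 2.48 ± 0.097 SE, limma adjusted p = 3.08e-09). Tnfrsf9, which encodes 4-1BB, had 1151, 1129 and 1114 TPM in 48h cells, against 439, 382 and 444 TPM in 24h cells. Tnfrsf4, which encodes OX40, stood at 762 ± 8.07 TPM at 48h and 243 ± 26.5 TPM at 24h, and Tnfrsf18, which encodes GITR, at 429 ± 22.5 TPM at 48h and 161 ± 17.8 TPM at 24h. Cd2, an adhesion receptor, stood at 285 ± 6.13 TPM at 48h and 113 ± 6.23 TPM at 24h. Traf1, an adaptor of these receptors, stood at 129 ± 1.64 TPM at 48h and 55.8 ± 1.84 TPM at 24h and was the 1 called gene of 15 in the NF-kB list. Icos (123 ± 5.7 TPM at 48h and 111 ± 7.64 TPM at 24h) was not called, and Cd5 (324 ± 12.2 TPM at 48h and 616 ± 64 TPM at 24h), Cd27 (65.8 ± 4.24 TPM at 48h and 107 ± 7.84 TPM at 24h) and Cd69 (164 ± 13.5 TPM at 48h and 231 ± 15.9 TPM at 24h) were lower by adjusted p alone.

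Of 26 cytokine receptor genes, 5 were called higher and 1 lower (median −0.05). The fall was Csf2rb, a shared receptor chain for GM-CSF and IL-3, just past 2-fold (1.13 ± 0.158 TPM at 48h and 3.27 ± 0.41 TPM at 24h), and its call ended under median-of-ratios scaling and without 48h replicate 1, 24h replicate 1 or 24h replicate 2. Il12rb2, the inducible chain of the IL-12 receptor, had 406, 420.1 and 381 TPM in 48h cells, against 93.7, 85.2 and 99.3 TPM in 24h cells (log2 fold change 2.11). Il7r, the survival receptor of naive and memory cells, had 62.7, 72 and 73.8 TPM in 48h cells, against 20.5, 17.1 and 19.8 TPM in 24h cells. Il2ra, which gives the IL-2 receptor its high affinity, had 946, 998 and 964 TPM in 48h cells, against 435, 449 and 458 TPM in 24h cells, and Il2rb (1017 ± 30.1 TPM at 48h and 525 ± 1.35 TPM at 24h) was higher under the 2-fold minimum. Ifngr1, a chain of the interferon gamma receptor, stood at 55.9 ± 4.36 TPM at 48h and 23.6 ± 3.52 TPM at 24h, and Il18r1 at 7.33 ± 1.95 TPM at 48h and 2.52 ± 0.105 TPM at 24h. Stat3 was the 1 called gene of 19 STAT and SOCS genes (216 ± 7.9 TPM at 48h and 92.8 ± 6.15 TPM at 24h).

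Genes of naive and resting cells went both ways, with 7 called higher and 4 lower of 29, and 6 and 4 without 24h replicate 2. S1pr1, the egress receptor, had 17.2, 19.2 and 18.9 TPM in 48h cells, against 3.58, 5.59 and 3.1 TPM in 24h cells (log2 fold change 1.96 ± 0.14 SE, limma adjusted p = 3.6e-07), and its Naive level was 1136 ± 135 TPM. Cxcr4, the receptor of CXCL12, belongs instead to the list of chemokine, egress and homing receptors. Cxcr4 had 30.9, 31.1 and 33 TPM in 48h cells, against 4.44, 3.89 and 5.41 TPM in 24h cells with 434 ± 1.12 TPM in Naive cells. Tsc22d3, which encodes GILZ, had 17.4, 18.2 and 19.4 TPM in 48h cells, against 5.03, 3.74 and 4.2 TPM in 24h cells. These genes were higher at 48h than at 24h and still under their Naive means. Slfn2, a quiescence factor, went the other way, with 264, 268 and 259 TPM in 48h cells, against 817, 886 and 806 TPM in 24h cells. Itgae, the integrin chain CD103, and Cxcr3 also belong to the homing receptor list. Of its 34 genes tested, 4 were called higher (4.95% of all genes were) and 3 lower (3.07% of all were). Itgae had 0.406, 0.486 and 0.477 TPM in 48h cells, against 6.83, 8.01 and 4.38 TPM in 24h cells, and Cxcr3 had 7.42, 8.36 and 5.34 TPM in 48h cells, against 20.2, 27.7 and 23.8 TPM in 24h cells. Tcf7 (150.2 ± 8.82 TPM at 48h and 219 ± 30.9 TPM at 24h) was lower by adjusted p alone, and Lef1 (29.3 ± 0.637 TPM at 48h and 29.7 ± 0.713 TPM at 24h) and Klf2 (6.35 ± 0.0682 TPM at 48h and 6.52 ± 0.662 TPM at 24h) overlapped between the groups.

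Klhl6 and Foxo1, which the title of the series names, did not pass the 2-fold minimum. Klhl6, a BTB-kelch adaptor of cullin-3, had 35.7, 37 and 32.9 TPM in 48h cells, against 38.8, 51.4 and 39.4 TPM in 24h cells (log2 fold change −0.28). It was lower by adjusted p alone (limma adjusted p = 0.0405), and its spread within 24h came mostly from replicate 2, which was the highest. Foxo1, the forkhead factor of resting T cells, had 52, 55.3 and 51.8 TPM in 48h cells, against 47.7, 47.9 and 45.6 TPM in 24h cells and did not pass the test (limma adjusted p = 0.144). None of the 28 genes tested of the BTB-kelch and cullin-3 list was called. By adjusted p alone 5 were higher (22.1% of all genes were) and 6 lower (30.0% of all were). Of 26 FOXO and PI3K pathway genes, Pik3cg, the gamma isoform of PI3-kinase, was the 1 called higher, with 36, 37.2 and 35.5 TPM in 48h cells, against 6.53, 7.04 and 5.49 TPM in 24h cells (log2 fold change 2.35), and Trib1 the 1 called lower (13.3 ± 1.22 TPM at 48h and 31.8 ± 0.492 TPM at 24h).

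Transcription factors of effector and memory fate were called higher in 10 of 35 cases (4.95% of all genes were) and lower in 2 (3.07% of all were). Without 24h replicate 2 the counts were 9 and 2. Bhlhe40, a repressor needed for cytokine output in T cells, had 629.7, 639 and 641 TPM in 48h cells, against 152, 136 and 155 TPM in 24h cells (log2 fold change 2.10 ± 0.095 SE, limma adjusted p = 8.06e-09). Nfil3 had 154, 162 and 153 TPM in 48h cells, against 34.9, 30.8 and 37.3 TPM in 24h cells, and Batf3 had 135, 128 and 114 TPM in 48h cells, against 30.7, 27.7 and 33.3 TPM in 24h cells. Zbtb32, a repressor of proliferation in T cells, stood at 358 ± 10.5 TPM at 48h and 134 ± 13.4 TPM at 24h, and Id2, an inhibitor of E proteins that is high in effectors, at 189 ± 11.4 TPM at 48h and 69.6 ± 6.6 TPM at 24h. Prdm1, which encodes BLIMP-1, was low, at 4.98 ± 0.722 TPM at 48h and 1.23 ± 0.106 TPM at 24h, and called. Tbx21, which encodes T-bet, fell, with 69.4, 62.9 and 58.5 TPM in 48h cells, against 164, 155 and 157 TPM in 24h cells (log2 fold change −1.31), and Bach2, a repressor that restrains effector genes, fell, with 24.3, 25.1 and 21.4 TPM in 48h cells, against 53.5, 55.2 and 49.8 TPM in 24h cells. Eomes (52.8 ± 3.18 TPM at 48h and 99.1 ± 3.79 TPM at 24h) and Tox (5.45 ± 0.809 TPM at 48h and 8.41 ± 0.549 TPM at 24h) were lower by adjusted p alone, and Irf4 (588 ± 14.2 TPM at 48h and 467 ± 22.3 TPM at 24h) higher by adjusted p alone.

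Early genes of TCR signalling were called in both directions. Of 35 tested, 4 were called higher (4.95% of all genes were) and 2 lower (3.07% of all were), with a median of −0.19. The falls were Egr3, with 26.5, 22.5 and 20.8 TPM in 48h cells, against 108, 89.8 and 91.1 TPM in 24h cells (log2 fold change −2.01 ± 0.17 SE, limma adjusted p = 1.1e-06), and Egr2, with 18.5, 15.1 and 16.2 TPM in 48h cells, against 62.4, 59.1 and 70.2 TPM in 24h cells. Both encode zinc finger factors that are induced by calcium and MAPK signals. Nr4a1 had 202, 191 and 196 TPM in 48h cells, against 228, 206 and 207 TPM in 24h cells and did not pass the test (limma adjusted p = 0.137), and Nr4a3 (181 ± 6.93 TPM at 48h and 230.0 ± 15.7 TPM at 24h) was lower by adjusted p alone. The rises were Ier3 (69.1 ± 6.19 TPM at 48h and 12.5 ± 0.468 TPM at 24h), Fosl2 (34.8 ± 3.95 TPM at 48h and 13.3 ± 1.12 TPM at 24h), the MAPK phosphatase Dusp4 (138 ± 7.55 TPM at 48h and 63 ± 3.03 TPM at 24h) and Fos, with 11.4, 12.9 and 14.4 TPM in 48h cells, against 5.39, 5.84 and 6.38 TPM in 24h cells. The call of Fos was lost without 48h replicate 3 or 24h replicate 1. Myc stood at 492 ± 13.9 TPM at 48h and 618 ± 32.4 TPM at 24h, lower by adjusted p alone, and its partner Max at 114 ± 3.37 TPM at 48h and 232 ± 7.35 TPM at 24h, called lower, with the call lost without 48h replicate 3 or 24h replicate 2.

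Interferon gamma-inducible genes fell while Ifng rose. Of 29 tested, 11 were called lower (3.07% of all genes tested were) and none higher, with a median of −0.64, and 23 were lower by adjusted p alone. Gbp2, a guanylate-binding protein, had 135, 134 and 138 TPM in 48h cells, against 731, 811 and 766 TPM in 24h cells (log2 fold change −2.49 ± 0.11 SE, limma adjusted p = 4.63e-09). Ifi47, an immunity-related GTPase, had 167, 164 and 179 TPM in 48h cells, against 501, 549.8 and 559 TPM in 24h cells, and Irgm1, another, had 45.4, 47.6 and 46.6 TPM in 48h cells, against 120.1, 138 and 135 TPM in 24h cells. In all of them the 3 libraries of a group lay close together, and no 48h library came near the 24h range. Tgtp1 (77.4 ± 2.06 TPM at 48h and 236 ± 15.2 TPM at 24h) and Tgtp2 (66.9 ± 7.38 TPM at 48h and 183 ± 8.42 TPM at 24h) are near-identical GTPase genes, and their split of reads is uncertain. Gbp4, Iigp1, Cxcl9 and Cxcl10 fell as well. Irf1, a transcription factor induced by interferon gamma, stood at 61.3 ± 1.03 TPM at 48h and 125 ± 9.38 TPM at 24h, and its call was lost without 24h replicate 1 or 24h replicate 3. Ciita, the master activator of MHC class II, stood at 0.55 ± 0.224 TPM at 48h and 2.81 ± 0.253 TPM at 24h. Ciita is also used by B cells and myeloid cells, whose markers were lower at 48h, and the part of those cells was not tested. Cd274, which encodes PD-L1, overlapped between the groups (63.2 ± 4.73 TPM at 48h and 60.6 ± 4.13 TPM at 24h), as did Psmb9 of the immunoproteasome (75.8 ± 4.22 TPM at 48h and 80.8 ± 5.68 TPM at 24h). At 72h the mean of Gbp2 was 224 ± 5.07 TPM, above its 48h level, while Ifng was at a small part of its 48h level.

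**Figure D4:**
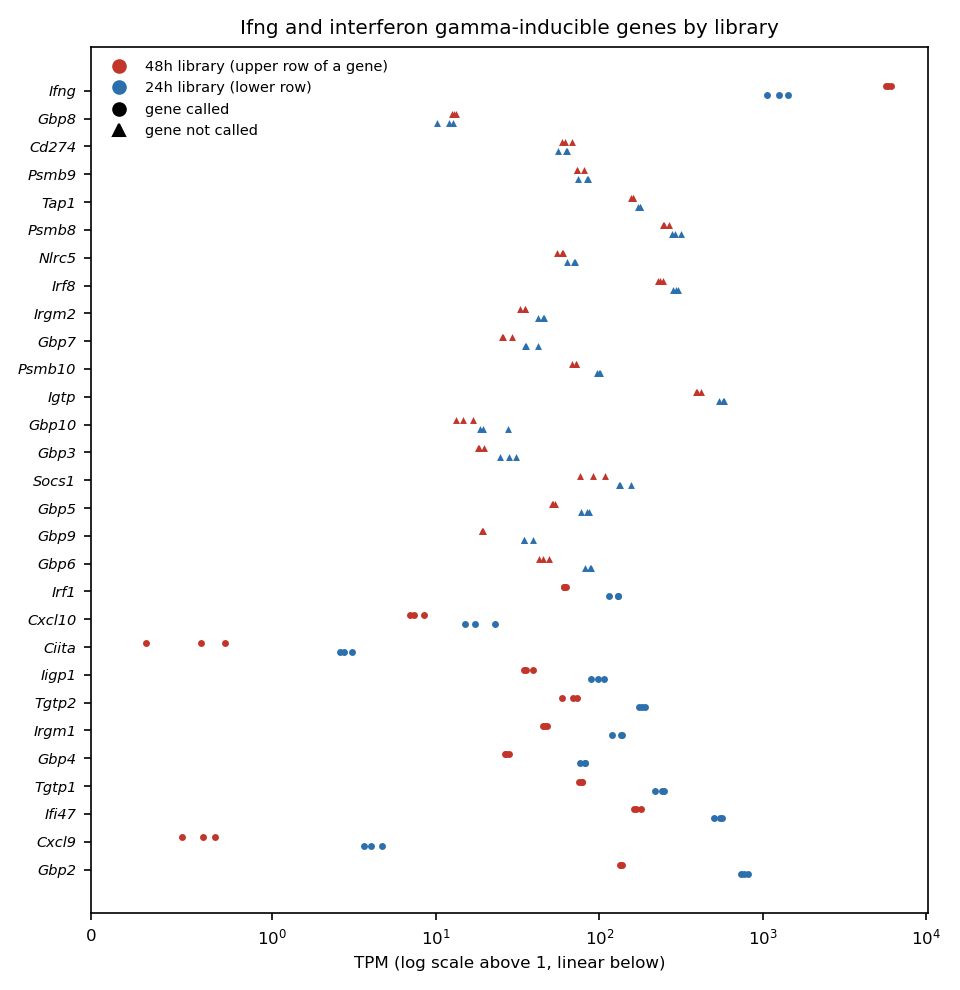
TPM of Ifng and of interferon gamma-inducible genes in each library, all 11 called ones among them (log scale above 1, linear below), with the 3 48h libraries (red) in the upper row of each gene and the 3 24h libraries (blue) in the lower row; circles mark called genes and triangles the others. In Ifng the red points lie to the right of the blue ones, and in the 11 called genes at the bottom they lie to the left.

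Of 31 type I interferon-stimulated genes, 3 were called higher (4.95% of all genes were) and none lower, with a median of 0.31. By adjusted p alone 15 were higher (22.1% of all genes were) and 7 lower (30.0% of all were). Without 24h replicate 2, 2 were called higher and 1 lower, with a median of 0.15. The rises were Mx2 (4.12 ± 0.373 TPM at 48h and 0.727 ± 0.459 TPM at 24h), Oas3 (60.9 ± 2.95 TPM at 48h and 23.8 ± 3.29 TPM at 24h) and Dhx58 (22.7 ± 0.564 TPM at 48h and 10.3 ± 2.06 TPM at 24h), genes of antiviral defence, and the call of Dhx58 was lost without 24h replicate 2. Ifit3 (0.881 ± 0.114 TPM at 48h and 2.75 ± 0.595 TPM at 24h) was lower by adjusted p alone, and Isg15 (84 ± 5.69 TPM at 48h and 48.1 ± 11.1 TPM at 24h) higher by adjusted p alone. The motif named ISRE, on either strand, which IRF and ISGF3 factors bind, was in 47.8% of the promoter windows of the interferon gamma-inducible list, in 46.4% of those of the type I list and in 3.22% of all windows. The gamma-activated site GAS, TTCNNNGAA, whose letters read the same on both strands, was in 39.1% of windows of the first list, 14.3% of windows of the second and 7.03% of all. Among the MHC class I and peptide loading genes, H2-Q6 and H2-Q7 were called higher (323 ± 18.9 TPM at 48h and 126 ± 20.8 TPM at 24h for H2-Q7), and both have close copies. Tapbp, the peptide loading factor tapasin, was lower by adjusted p alone (154 ± 7.25 TPM at 48h and 285 ± 20.6 TPM at 24h).

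DNA replication genes were mostly lower by adjusted p alone, all but 1 of them by less than 2-fold. Of 51 tested, 41 were lower by adjusted p alone (30.0% of all genes were) and 1 higher, with a median log2 fold change of −0.56. The 1 called was Ung, which removes uracil from DNA, with 48.1, 50.1 and 50.2 TPM in 48h cells, against 136, 144 and 127 TPM in 24h cells (log2 fold change −1.44), and 2 were called without 24h replicate 2. Mcm5, a subunit of the replicative helicase, had 271, 259 and 245 TPM in 48h cells, against 459.6, 499.9 and 429 TPM in 24h cells (log2 fold change −0.84), and Pcna, the sliding clamp, had 702, 687 and 724 TPM in 48h cells, against 1066, 997 and 1094 TPM in 24h cells. The group ranges were apart in all 3 genes, and the differences of Mcm5 and Pcna were under 2-fold. The E2F letters TTTCGCGC, on either strand, were in 16.7% of promoter windows of the list and 0.638% of all. E2f1, a driver of these genes, stood at 39.3 ± 2.7 TPM at 48h and 79.4 ± 2.75 TPM at 24h, just short of the 2-fold minimum. The exception was Orc1 of the origin recognition complex, higher by adjusted p alone (68 ± 4.25 TPM at 48h and 57.1 ± 1.9 TPM at 24h).

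Mitotic genes went the other way by adjusted p alone, with few calls. Of 48 tested, 3 were called higher (4.95% of all genes were) and none lower. By adjusted p alone 25 were higher (22.1% of all genes were) and 3 lower (30.0% of all were), with a median of 0.29. Ccnb2, a mitotic cyclin, had 165, 160.3 and 169 TPM in 48h cells, against 54.1, 43.3 and 53 TPM in 24h cells (log2 fold change 1.70 ± 0.13 SE, limma adjusted p = 4.58e-07). Cenpa, the centromeric histone, had 128, 122 and 114 TPM in 48h cells, against 54.1, 39.2 and 45.6 TPM in 24h cells, and Hmmr, a spindle protein, had 92.5, 104 and 94.6 TPM in 48h cells, against 41.4, 44.3 and 44.1 TPM in 24h cells. Cdk1 (105 ± 2.92 TPM at 48h and 120.0 ± 11.1 TPM at 24h), Top2a (346 ± 10.9 TPM at 48h and 341 ± 13.4 TPM at 24h) and Mki67 (233 ± 24.8 TPM at 48h and 209 ± 14.6 TPM at 24h) did not pass the test, and Mybl2, an activator of late cell-cycle genes, was lower by adjusted p alone (54.4 ± 2.79 TPM at 48h and 98.6 ± 3.47 TPM at 24h).

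Of 22 cyclins, cyclin-dependent kinases (CDKs) and their regulators, 4 were called higher and none lower, with 11 higher and 10 lower by adjusted p alone and a median of 0.05. The rises were 3 CDK inhibitors and Ccng2. Cdkn1a, which encodes p21, had 367, 346 and 343 TPM in 48h cells, against 29.9, 19.5 and 33.1 TPM in 24h cells (log2 fold change 3.66 ± 0.16 SE, limma adjusted p = 6.86e-09). Cdkn1b, which encodes p27, had 33.2, 29.4 and 30.9 TPM in 48h cells, against 15.6, 13.3 and 13.3 TPM in 24h cells, and Cdkn2d, which encodes p19, had 117, 109.6 and 113 TPM in 48h cells, against 44.3, 30.6 and 43.1 TPM in 24h cells. Ccng2, a cyclin found in resting cells, had 30.4, 32.6 and 34.3 TPM in 48h cells, against 6.91, 3.83 and 7.57 TPM in 24h cells. All of these were higher in each 48h library than in any 24h library. Cdkn2c, another inhibitor, was higher by adjusted p alone (24 ± 1.87 TPM at 48h and 18.3 ± 3.33 TPM at 24h). For orientation, the Naive mean of Ccng2 was 69.5 ± 9.27 TPM and that of Cdkn1b was 283 ± 44.2 TPM. Cdk4 (247 ± 9.9 TPM at 48h and 355 ± 8.55 TPM at 24h) and Ccnd2 (455 ± 17.1 TPM at 48h and 722 ± 69.7 TPM at 24h), which drive entry into S phase, were lower by adjusted p alone. Of 22 p53 targets, 6 were called higher and none lower, with a median of 0.59. Besides Cdkn1a and Sesn2 they were Perp (75.4 ± 3.15 TPM at 48h and 21.4 ± 2.38 TPM at 24h), Phlda3 (11.8 ± 1.78 TPM at 48h and 3.52 ± 0.656 TPM at 24h), Trp53inp1 (20.8 ± 0.394 TPM at 48h and 7.58 ± 0.157 TPM at 24h) and the polymerase Polk (26.2 ± 2.3 TPM at 48h and 12.5 ± 0.353 TPM at 24h), whose call was lost without 48h replicate 2 or 24h replicate 2. Trp53 itself was lower by adjusted p alone (102 ± 5.77 TPM at 48h and 139 ± 5.81 TPM at 24h), and Mdm2 higher (80.7 ± 3.95 TPM at 48h and 58.2 ± 2.5 TPM at 24h).

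Replication-dependent histone transcripts had the lowest median of the 24 lists plotted. Of 26 tested, 19 were called lower and none higher, with a median of −1.34. They summed to between 299 and 303 TPM in 48h libraries and between 670.1 and 1039 TPM in 24h libraries. Hist1h3a had 18, 16.7 and 12.9 TPM in 48h cells, against 127, 92.4 and 132 TPM in 24h cells, and Hist1h1e, a linker histone, had 0.904, 2.13 and 1.8 TPM in 48h cells, against 11.6, 8.35 and 9.25 TPM in 24h cells (log2 fold change −2.06). Between 12 and 19 were called with 1 library left out, 12 without 24h replicate 1 and 13 without 48h replicate 1. These mRNAs lack poly(A) tails, so their capture depends on the library preparation, and members of the family are near-identical, so single values are uncertain. Hist1h1c (11.5 ± 0.961 TPM at 48h and 8.78 ± 1.67 TPM at 24h) and Hist1h2bc (8.47 ± 2.02 TPM at 48h and 4.01 ± 0.694 TPM at 24h), which are known to give polyadenylated forms, were higher by adjusted p alone.

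Ribosome assembly genes were lower in most cases. Of 49 tested, 47 were lower by adjusted p alone (30.0% of all genes were) and none higher, with a median of −0.64, but only 3 passed the 2-fold minimum. With 1 library left out that count was 1 without 48h replicate 3, 6 without 48h replicate 1, 5 without 48h replicate 2 or 24h replicate 3, and 4 without 24h replicate 1 or 24h replicate 2. With quantile normalization it was 1. Grwd1, a ribosome assembly chaperone, had 77.1, 78.1 and 72.7 TPM in 48h cells, against 191, 215 and 190.2 TPM in 24h cells (log2 fold change −1.37 ± 0.063 SE, limma adjusted p = 8.31e-09). The others were Rrp9 (83.5 ± 10.0 TPM at 48h and 172 ± 7.03 TPM at 24h) and Utp20 (53.5 ± 3.13 TPM at 48h and 111 ± 4.8 TPM at 24h), both of the small subunit processome, whose calls were lost without 48h replicate 3. Nop2, an rRNA methyltransferase, had 177, 161 and 162 TPM in 48h cells, against 335, 344 and 309 TPM in 24h cells, a difference just under 2-fold. Npm1, nucleophosmin, had the smallest fold difference of those lower by adjusted p alone (log2 fold change −0.16, 3078 ± 156 TPM at 48h and 3429 ± 182 TPM at 24h). Genes of the ribosomal proteins themselves held no call in 44 and a median of 0.04. Aminoacyl-tRNA synthetases, several of them known ATF4 targets, held none in 20, with 8 higher and 5 lower by adjusted p alone.

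Nucleotide synthesis genes were mostly lower by adjusted p alone. Of 26 purine and pyrimidine genes, 22 were lower by adjusted p alone (30.0% of all genes were) and 2 called, both calls being lost with quantile normalization. Cad, which starts pyrimidine synthesis, had 149.7, 141 and 126 TPM in 48h cells, against 308, 302 and 268 TPM in 24h cells (log2 fold change −1.07). Pfas of purine synthesis stood at 65.5 ± 3.24 TPM at 48h and 133 ± 6.35 TPM at 24h, and its call was lost without 48h replicate 3, 24h replicate 1 or 24h replicate 2. Of 12 polyamine and methionine genes, 2 were called lower and 1 higher, with 6 lower and 3 higher by adjusted p alone. Srm, spermidine synthase, had 437, 397 and 407 TPM in 48h cells, against 979, 943 and 874 TPM in 24h cells, and Mat2a, which makes S-adenosylmethionine, had 204, 202 and 214 TPM in 48h cells, against 421, 451 and 454 TPM in 24h cells. Both lay far apart between the groups. Smox, spermine oxidase of polyamine breakdown, went the other way, with 45.1, 43.4 and 40.3 TPM in 48h cells, against 6.1, 3.77 and 5.93 TPM in 24h cells (log2 fold change 2.83 ± 0.14 SE, limma adjusted p = 1.38e-08). Odc1, ornithine decarboxylase, had 1136, 1161 and 1190.3 TPM in 48h cells, against 1146, 1214 and 1188 TPM in 24h cells, with overlap between the groups. The E-box CACGTG, the letters that MYC and MAX can bind, was in 15.3% of promoter windows of genes called lower, 6.08% of those of genes called higher and 10.1% of all. The writers of DNA methylation Dnmt3a (26.6 ± 1.71 TPM at 48h and 68.8 ± 2.79 TPM at 24h) and Dnmt3b (11.8 ± 0.421 TPM at 48h and 25.8 ± 2.64 TPM at 24h) fell, the second call being lost without 24h replicate 2.

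Among lipid genes the desaturases rose. Scd1, a stearoyl-CoA desaturase, had 163, 157 and 152 TPM in 48h cells, against 24.5, 16 and 23.2 TPM in 24h cells (log2 fold change 2.86 ± 0.13 SE, limma adjusted p = 7.42e-09), and Scd2 had 1235, 1252 and 1172 TPM in 48h cells, against 429, 316 and 428 TPM in 24h cells. Fads2, a desaturase of polyunsaturated fatty acids, stood at 116 ± 9.16 TPM at 48h and 44.7 ± 8.77 TPM at 24h, and Me1, malic enzyme, at 1.34 ± 0.134 TPM at 48h and 0.0274 ± 0.0238 TPM at 24h. Fasn, fatty acid synthase, was lower by adjusted p alone (206 ± 20.7 TPM at 48h and 323 ± 19.9 TPM at 24h). Of 26 cholesterol synthesis and uptake genes, 3 were called higher, and 1 without 24h replicate 2. Insig2, which retains the SREBP complex in the endoplasmic reticulum, kept its call in that fit, at 27.9 ± 1.75 TPM at 48h and 9.82 ± 0.266 TPM at 24h. Soat2, which stores cholesterol as esters, had 33.8, 26.5 and 31.1 TPM in 48h cells, against 5.14, 4.72 and 6.62 TPM in 24h cells (log2 fold change 2.28).

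The inducible HSP70 genes rose, and the constitutive chaperones did not. Hspa1a had 7.63, 8.09 and 8.09 TPM in 48h cells, against 0.757, 0.895 and 1.36 TPM in 24h cells and Hspa1b had 13.3, 10.0 and 10.7 TPM in 48h cells, against 2.75, 1.45 and 1.68 TPM in 24h cells, near-identical copies of inducible HSP70 whose split is uncertain. The constitutive HSP70 gene Hspa8 was lower by adjusted p alone (3298 ± 124 TPM at 48h and 5097 ± 428 TPM at 24h), as was the mitochondrial chaperonin Hspd1 (1442 ± 31.9 TPM at 48h and 2125 ± 72.3 TPM at 24h). Of 22 tested, 3 were called higher, the other being Dnajb4 (14 ± 1.01 TPM at 48h and 6.19 ± 0.41 TPM at 24h), and 12 were lower by adjusted p alone. The heat shock element letters GAANNTTC were in 45.8% of promoter windows of the list and 5.7% of all. Metallothioneins, which bind zinc and copper, were among the strongest rises of all genes. Mt1 had 151, 145 and 159.6 TPM in 48h cells, against 19.4, 9.27 and 16.7 TPM in 24h cells (log2 fold change 3.30 ± 0.26 SE, limma adjusted p = 6.6e-07), and Mt2 had 259.5, 224 and 235 TPM in 48h cells, against 13.9, 8.76 and 15.5 TPM in 24h cells. The zinc exporter Slc30a1, which shares their metal-responsive factor, fell instead, with 4.0, 4.4 and 5.03 TPM in 48h cells, against 11.4, 10.1 and 9.46 TPM in 24h cells, and leaving out the first replicate of either group ended that call. Hmox1, which degrades haem, had 31.6, 29.6 and 26.8 TPM in 48h cells, against 8.15, 7.94 and 10.8 TPM in 24h cells.

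Genes of calcium-binding S100 proteins, annexins and galectins rose in 7 of 15 tested (median 1.00). Anxa2, a membrane-binding annexin, had 397, 414 and 418 TPM in 48h cells, against 45.4, 19.5 and 48.7 TPM in 24h cells. Lgals1, which encodes galectin-1, had 895, 908 and 788 TPM in 48h cells, against 209.8, 163 and 186 TPM in 24h cells, and Lgals3, which encodes galectin-3, had 61.1, 53 and 52.8 TPM in 48h cells, against 11.4, 9.58 and 11.5 TPM in 24h cells. All 3 were lowest in 24h replicate 2, and their 48h libraries lay far above each 24h library. S100a10, the partner of annexin A2, stood at 446 ± 9.95 TPM at 48h and 202 ± 10.6 TPM at 24h, and S100a4 was lower by adjusted p alone (0.934 ± 0.396 TPM at 48h and 2.85 ± 0.802 TPM at 24h). Vim, vimentin of intermediate filaments, stood at 703 ± 5.7 TPM at 48h and 100.2 ± 11.4 TPM at 24h, and Tubb6, a tubulin, at 114 ± 10.4 TPM at 48h and 25.1 ± 3.48 TPM at 24h.

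Survival genes of the BCL2 family moved both ways on each side. The antiapoptotic Bcl2 had 97, 97.3 and 89.9 TPM in 48h cells, against 44.4, 35.4 and 47.3 TPM in 24h cells (log2 fold change 1.15), and Bcl2l2 stood at 18.6 ± 0.831 TPM at 48h and 7.51 ± 1.35 TPM at 24h. The proapoptotic Bbc3, which encodes PUMA, had 19.5, 15.6 and 13.8 TPM in 48h cells, against 6.72, 4.93 and 5.24 TPM in 24h cells, and Pmaip1, which encodes NOXA, had 19.6, 23.1 and 24.9 TPM in 48h cells, against 7.15, 8.2 and 10.6 TPM in 24h cells. Bcl2l11, which encodes the proapoptotic BIM, fell, with 7.6, 8.16 and 8.3 TPM in 48h cells, against 38.9, 40.9 and 39.2 TPM in 24h cells (log2 fold change −2.17 ± 0.12 SE, limma adjusted p = 2.94e-08). Bcl2a1a fell too, and it is one of several near-identical A1 genes. Mcl1 was lower by adjusted p alone (260.3 ± 3.98 TPM at 48h and 356 ± 8.22 TPM at 24h). In all, 4 of 16 were called higher and 2 lower.

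Some genes were near 0 at one time and clearly present at the other. Those with every library of one group under 1 TPM and every library of the other at 5 TPM or more numbered 12 present at 48h and 5 present at 24h. Besides Il10, Aldh1l2, Stc2 and Vldlr, the first set held Smtnl2, with 10.3, 10.2 and 11.6 TPM in 48h cells, against 0.547, 0.246 and 0.796 TPM in 24h cells, and Tgfb3, a TGF-beta ligand, with 7.44, 6.67 and 7.44 TPM in 48h cells, against 0.427, 0.369 and 0.399 TPM in 24h cells. It also held Tgm1, Apold1, Aplp1, Epn2, Bzrap1 and Ccdc184. The second set held Ccl1, Lyz2, Sntb1, a syntrophin (0.785 ± 0.226 TPM at 48h and 6.09 ± 0.34 TPM at 24h), Cfb, complement factor B (0.756 ± 0.212 TPM at 48h and 6.34 ± 0.432 TPM at 24h), and the immunoglobulin segment Ighv8-8, which did not pass the test (limma adjusted p = 0.0679). Lyz2 and Ighv8-8 belong to myeloid and B cells, and both were highest in Naive cells, at 431 ± 274 TPM and 107 ± 175 TPM.

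By number, the lists with most calls higher were hypoxia, integrated stress response, cytokines and glycolysis. Those with most calls lower were histones, interferon gamma-inducible genes, B cell markers and chemokines. The lists differ in size, and the shorter list of S100 proteins, annexins and galectins had 7 of 15 called higher. Without 24h replicate 2, glycolysis held 6 calls, fewer than the 9 of the effector and memory transcription factors. In the plot of lists, hypoxia and histone genes stand at its ends, cytokines lie near the middle by their median (0.13), and ribosome assembly, replication and nucleotide genes, with few calls, lie below 0.

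**Figure D5:**
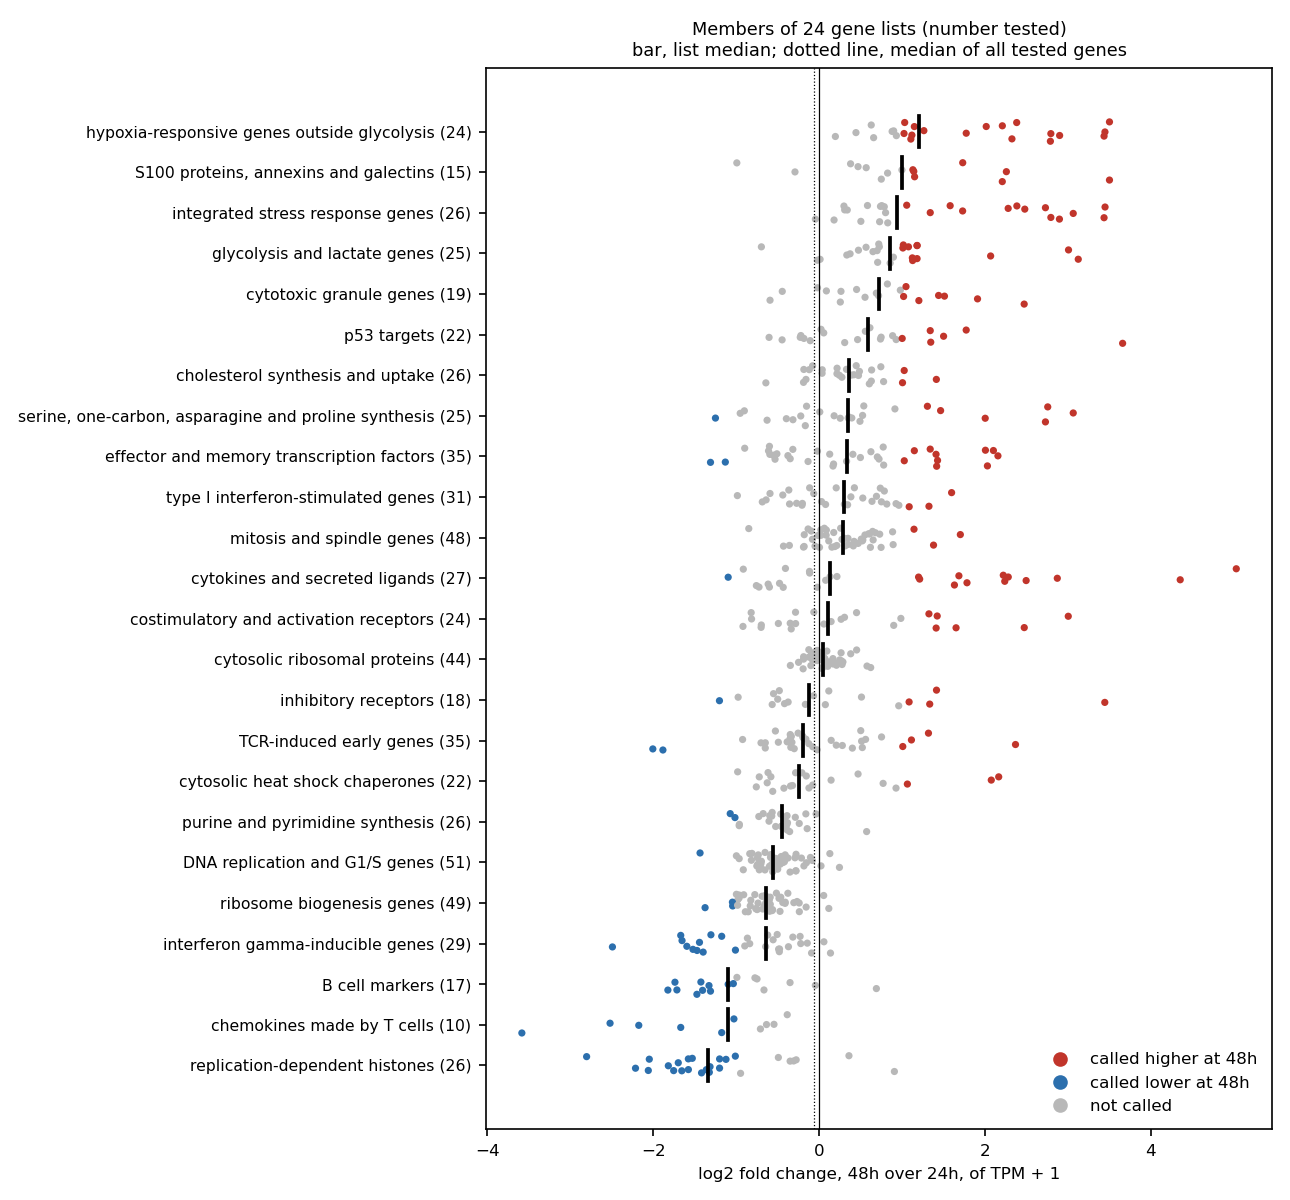
Each point is a tested member of 1 of 24 gene lists, by its log2 fold change of 48h over 24h of TPM + 1; red points were called higher at 48h, blue lower and grey not called. Black bars are list medians and the dotted line the median of all genes (−0.06); list medians run from 1.21 for hypoxia-responsive genes to −1.34 for replication-dependent histones.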

How the data were processed

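RNA of 12 libraries (Naive, 24h, 48h and 72h, 3 each) was sequenced. The authors deposited 1 table of TPM per gene. The submitters' processing notes name FastQC 0.11.9, cutadapt 2.9, STAR 2.7.7a, edgeR 3.36.0 and the build GRCm39. The counter behind TPM, the annotation, strandedness and the handling of multi-mapped reads were not given in the sources used here, so values of gene families and of overlapping or antisense genes are uncertain. Low TPM values came in whole steps, which gave whole reads (tolerance 0.001) for 19181 of the 19181 genes above 0. For some genes such a count may be an exact fraction of the true one.

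Tests used limma 3.58.1 in R 4.3.3 on log2(TPM + 1): 4 group means over all 12 libraries, a variance trend, a filter of 1 TPM reached in 3 or more libraries, 2-sided, Benjamini-Hochberg adjustment over 12630 genes. A call needed an adjusted p under 0.05 and a 2-fold difference. The fit was also run on simulated data, with the same setting of variation for every gene and changes well past 2-fold in well-expressed genes only. That run does not bear on calls near 2-fold or at low TPM. Nothing says that replicates share a mouse or a day, and p-values measure the spread between these libraries.

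The comparison and its 64 gene lists were chosen with earlier results of these data known, so lists are described by counts and medians. Named genes were the 15 largest rises and falls in fold (at least 10 TPM in the higher group, no overlap), the 10 largest in TPM, up to 6 called members of each list (5 TPM or more in the higher group) and the genes near 0 in 1 group. Other list members named, such as Soat2, Trib3 and those not called, were chosen after their values were seen. Promoters came from RefSeq (GRCm38.p6), matched by symbol. Alternatives were another pseudocount, filter, scaling, model, fold rule, weighting and each library left out, and, added after seeing the data, limma voom on the recovered reads. A few genes are not reported here.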

Additional observations from a re-analysis of the deposited data

How the results depend on the processing

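Counts of called genes kept to within 1.5 times of 625 higher and 388 lower under other filters, other scalings, no variance trend, fits on fewer groups and library weights. With 1 library left out they ran from 574 to 660 higher and from 368 to 424 lower, and 553 of the 625 genes higher at 48h were also called without 24h replicate 2. A pseudocount of 0.1 TPM gave 700 lower, and one of 5 TPM gave 298 higher and 150 lower. Without a fold minimum 2786 were higher and 3789 lower, and limma treat against a 2-fold change left 210 and 64. Limma voom on the recovered reads called 952 higher, 624 of them among the 625, and 580 lower. These settings change the low genes, the fold rule or the unit, by construction. Rises were 61.7% of calls, against 65.4% with median-of-ratios scaling, 76.6% under treat and 42.4% with no fold minimum. The replicate block gave 625 higher and 392 lower. Deviations of same-numbered libraries correlated at 0.089, 0.016 and 0.030, and 2 of the 3 48h libraries correlated best with their own number, so the numbers were not taken as pairs. Of 237 named genes that were called, 32 lost the call with at least 1 of the 6 libraries left out, 23 of them without 24h replicate 2, and a pseudocount of 5 TPM ended 47 calls; none reversed. Quantile normalization, which gives every library the same set of values, ended 16 of these calls and median-of-ratios scaling 7. Depth limits genes near 1 TPM, where single reads set the steps.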
